A study of Mus musculus with 8 samples.

Results

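The comparison described here sets mouse embryonic stem cells with a Gtf2i allele that lacks exon 2 against wild-type embryonic stem cells, on Affymetrix expression arrays. The exon 2 mutant (genotype Δexon2/+, 2 arrays) is a gene-targeted line derived from R1 cells, and carries the deletion on 1 allele. The wild-type cells (2 arrays) are given without the name of a line. The same series holds 2 arrays of a Gtf2i gene-trap line made in AB2.2 cells (genotype HPRT -/-:GTF2I +/-) and 2 arrays of an Hprt knockout (HPRT -/-), which are used below to show where the mutant or the wild-type stands apart from the other lines. All 4 groups were grown on a monolayer of feeder cells, with LIF and serum replacement, and each genotype is represented by 1 line. The mutant arrays entered the repository separately from the remaining ones. The effects of the mutation, of the parental line and of any batch cannot be told apart. Members were the 4 arrays whose titles name the mutant or the wild-type, of 8 in all, and every gene with a probe set of its own. A gene with several probe sets was read on its brightest one. Of 18193 genes, 13819 exceeded the 40th percentile of all probe sets in 2 or more of the 8 columns and were tested, and 4374 did not. Levels are deposited log2 RMA intensities, differences are mutant minus wild-type on that scale with the standard error of a limma fit after the ± sign (n = 2 arrays a group), and a gene passed at a Benjamini-Hochberg adjusted p under 0.05. The replicates are labelled biological, but separate cultures are not named, so the p-values measure the spread between these arrays.

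Gtf2i encodes TFII-I, a transcription factor that binds initiator elements and E-boxes, takes part with serum response factor in the activation of the Fos promoter after growth factor stimulation, and in the cytoplasm binds phospholipase C gamma and limits calcium entry. The gene is among those lost in Williams-Beuren syndrome, beside its relatives Gtf2ird1 and Gtf2ird2. Embryonic stem cells on feeders are held undifferentiated by LIF, divide rapidly with a short first gap phase, and rely largely on glycolysis.

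The pluripotency markers were high on all 8 arrays. Pou5f1, the core pluripotency factor, measured 13.0 and 13.1 in the mutant, 13.0 and 13.0 in the trap line, 13.5 and 13.4 in the Hprt knockout and 12.7 and 12.8 in wild-type. Of the trophoblast markers, Cdx2, Elf5 and Tpbpa did not pass the filter, and neither did the neuronal marker Dcx. Other lineage markers did. Krt7 (trophoblast), Tubb3 (neural) and Gata4 and Gata6 (endoderm) exceeded it on all 8 arrays, and Pax6 (neural) on 6. The samples also held feeder RNA. The summed intensity of the feeder fibroblast markers, on the log2 scale, was 16.99 and 17.01 in the mutant, 17.19 and 17.20 in the trap line, 12.63 and 12.64 in the Hprt knockout and 17.41 and 17.42 in wild-type. Of 27 tested feeder markers 24 were lower in the mutant than in wild-type and 1, Snai2, was higher, with a median difference of -0.50. Among them Tnc, a matrix glycoprotein, differed by -1.28 and Col1a2, a collagen I chain, by -0.16. The Hprt knockout held far less feeder RNA than the other 3 lines, with all 27 markers lower there than in the mutant. In bulk samples fewer cells of a type and less RNA per cell cannot be told apart.

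Gtf2i itself was higher in the mutant. Its brightest probe set measured 10.45 and 10.51 in the mutant, 10.11 and 10.07 in the trap line, 10.92 and 10.89 in the Hprt knockout and 10.10 and 10.14 in wild-type, a difference of 0.36 ± 0.05 (adjusted p = 0.00102). The second probe set measured 8.43 and 8.39 in the mutant and 7.72 and 7.81 in wild-type, a difference of 0.64 ± 0.07 (adjusted p = 0.000752 in a fit of all probe sets), and the other 2 were below the filter level. Where these probe sets lie relative to exon 2 was not analysed here, so their levels do not check the genotype. Gtf2ird1 differed by 0.71 ± 0.06 (adjusted p = 7.68e-05) on its brighter probe set and by 0.15 on the other, which did not pass. Gtf2ird2 differed by 0.07 and did not pass (adjusted p = 0.534). Hprt measured 12.25 and 12.25 in the mutant and 12.09 and 12.08 in wild-type.

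The mutant differed from wild-type in 7674 of 13819 tested genes (55.5%), of which 4485 were higher in the mutant (32.5% of tested) and 3189 lower (23.1%). Most calls were small. Of the called genes 15.4% differed by less than 0.25 and 42.2% by 0.25 to 0.5, the smallest called difference was 0.13, and the median size was 0.44. At least a 2-fold difference was seen in 750 genes (5.43%), 409 higher (2.96%) and 341 lower (2.47%). Beyond 4-fold there were 28 genes higher and 49 lower. With more than 1 in 2 genes called, a gene list is read below against these shares. The split of the calls depends on scaling: after cyclic loess 3663 were higher and 4047 lower, or 47.5% higher in place of 58.4%. The median difference over all tested genes was 0.03 on the deposited values.

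The 48 gene lists described below hold 1380 genes with a probe set of their own, of which 1323 were tested and 57 were below the filter. They fell into lists with a high share of rises, lists with a high share of falls, and lists near the background. Replication genes, pluripotency factors, tRNA synthetases, cohesin and condensin, glycolysis, kinetochore and spindle, recombination and serine and folate genes had the highest shares of rises, from 93.0% to 75.0%. Feeder markers, targets of SRF and YAP, ERK feedback genes, endoderm markers, matrix proteases and endoplasmic reticulum chaperones had the highest shares of falls.

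**Figure D1:**
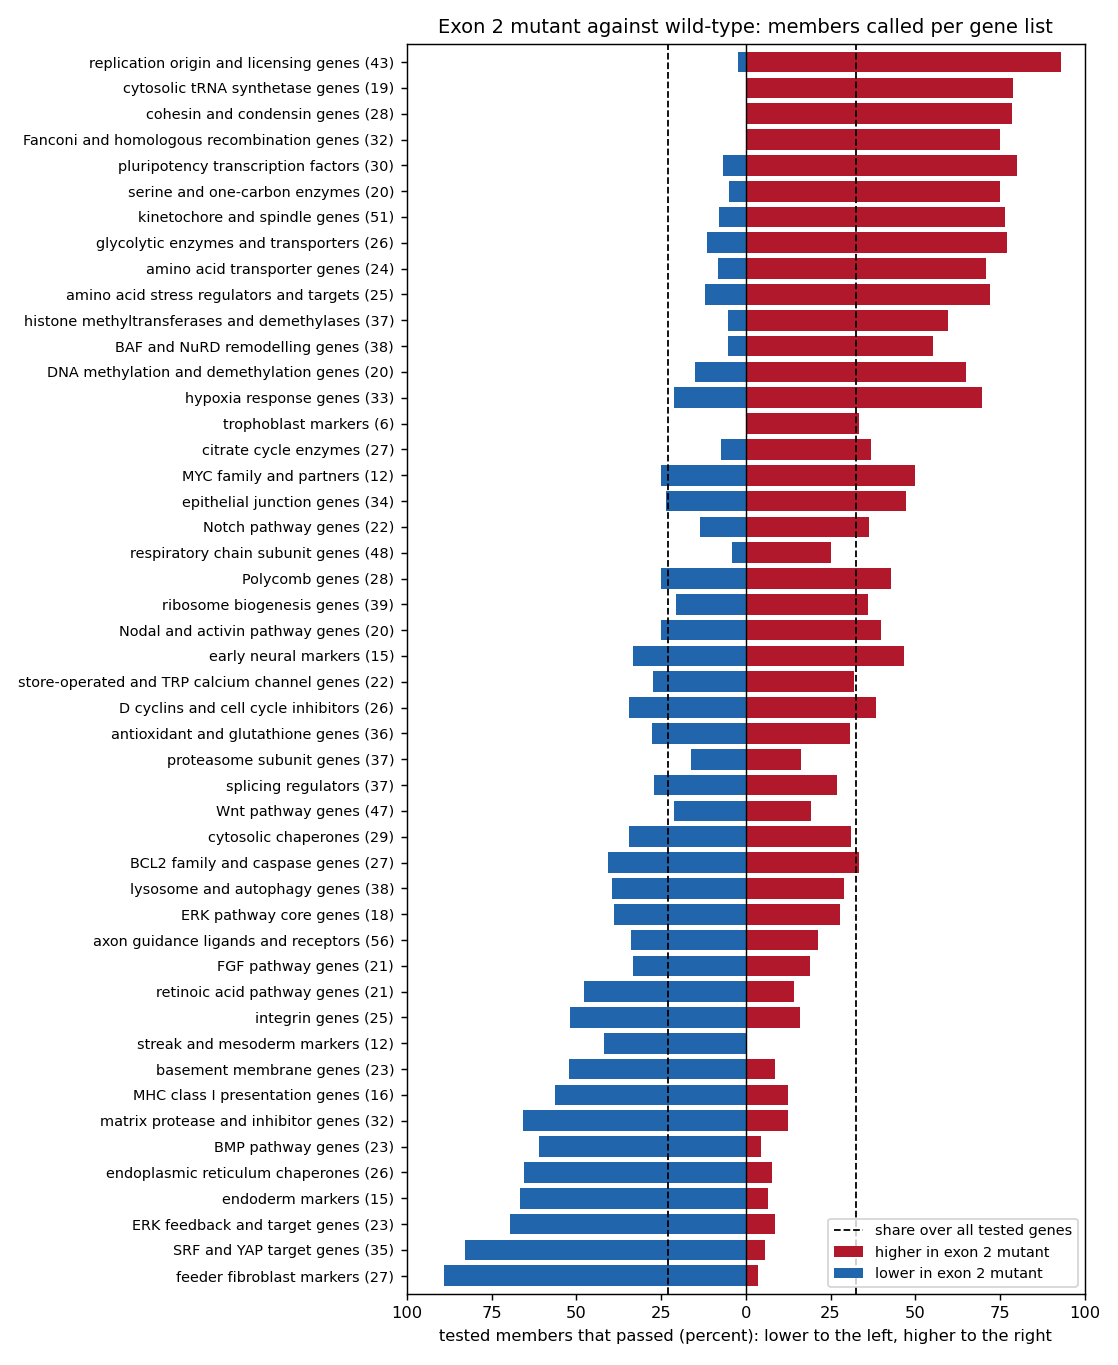
Share of tested members of each gene list that passed in the exon 2 mutant against wild-type, in percent, with rises to the right in red and falls to the left in blue. The number of tested members stands beside each name, and the dashed lines mark the shares over all 13819 tested genes, 32.5% higher and 23.1% lower. Replication genes stand at the top with 40 of 43 higher, and feeder fibroblast markers at the bottom with 24 of 27 lower.

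Genes of DNA replication were higher in the mutant almost throughout. Of 43 tested genes for origin recognition, licensing and the replisome, 40 rose and 1 fell, with a median difference of 0.48. Orc5, a subunit of the origin recognition complex, measured 11.38 and 11.38 in the mutant, 10.82 and 10.87 in the trap line, 11.10 and 11.05 in the Hprt knockout and 10.29 and 10.29 in wild-type, a rise of 1.09 ± 0.05 (adjusted p = 1.17e-05). The mutant arrays were the highest and the wild-type arrays the lowest of the 8. Mcm8, a helicase that acts in recombination and fork repair, rose by 1.09 ± 0.09, and the polymerase subunits Pola2 and Pold1 rose by 1.07 ± 0.09 and 1.02 ± 0.06. Mcm10, which loads polymerase alpha onto the helicase, rose by 0.96 on its brightest probe set and differed by -0.56 on another, so its direction is uncertain. Pcna, the sliding clamp, rose by 0.29 ± 0.06 (adjusted p = 0.00393). Rfc3, a clamp loader subunit, fell by 0.32 ± 0.08 (adjusted p = 0.0104).

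The wild-type arrays were the lowest of the 8 for 25 of the 43 replication genes, where the share over all genes was 24.3%. Against the trap line 35 of the 43 were higher in the mutant and 1 lower (24.5% and 24.7% of all genes, or 49.2% in all). Against the Hprt knockout 5 were higher and 21 lower (24.9% and 36.3% of all genes, or 61.2% in all). All 3 comparisons share the mutant arrays. By their summed intensity, feeder markers were lowest in the Hprt knockout and highest in wild-type, and the part of feeder RNA in this result was not tested.

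Most mitotic and repair genes rose too. Of 51 kinetochore and spindle genes 39 rose and 4 fell (median 0.41). Ndc80, which links the outer kinetochore to microtubules, rose by 1.01 ± 0.08, the checkpoint kinase Ttk by 0.94 ± 0.06, the kinesin Cenpe by 0.93 ± 0.06, and Bub1, another checkpoint kinase, by 0.90 ± 0.06. Cdc20, the activator of the anaphase-promoting complex, measured 12.93 and 12.88 in the mutant and 12.81 and 12.81 in wild-type and did not pass (adjusted p = 0.150). The falls were small: Cenpb, a centromere protein, fell by 0.33, Bub3 by 0.20, and Mad1l1 and Kif15 by 0.26 each, with Kif15 below the filter level in the mutant.

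Of 28 cohesin and condensin genes 22 rose and none fell at the adjusted threshold (median 0.41). Both mutant arrays lay above the other 6 for 11 of the 28, against 9.46% of all genes. The largest rises included 2 subunits known from meiotic cohesin. Smc1b measured 8.22 and 8.27 in the mutant, 7.42 and 7.36 in the trap line, 7.95 and 7.88 in the Hprt knockout and 7.31 and 7.17 in wild-type, a rise of 1.00 ± 0.07 (adjusted p = 3.94e-05). Stag3 measured 8.79 and 8.83 in the mutant, 7.78 and 7.95 in the trap line, 8.19 and 8.13 in the Hprt knockout and 8.02 and 8.05 in wild-type, a rise of 0.78 ± 0.07 (adjusted p = 0.000119). For both genes the mutant arrays were above all others, the trap line included. The shugoshins Sgo2a and Sgo1, which protect centromeric cohesion, rose by 0.98 and 0.70, and the condensin subunit Ncapg by 0.92.

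Among 32 Fanconi and homologous recombination genes 24 rose and none fell at the adjusted threshold (median 0.53). Rad54b, a DNA translocase of recombination, rose by 1.47 ± 0.08. Rad50, a subunit of the complex that senses double-strand breaks, measured 9.79 and 9.93 in the mutant, 9.02 and 9.0 in the trap line, 9.58 and 9.57 in the Hprt knockout and 8.52 and 8.55 in wild-type, a rise of 1.32 ± 0.06 (adjusted p = 1.15e-05). Rad51c rose by 1.27 ± 0.10 and Brca1 by 1.08 ± 0.05, while Brca2 rose by 0.37 ± 0.05. Against the Hprt knockout 5 of the 32 were higher in the mutant and 18 lower (24.9% and 36.3% of all genes), as for replication.

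Genes that respond to a shortage of amino acids formed the next group. Low amino acids activate kinases of the translation factor eIF2 alpha, which raises the factor ATF4, and ATF4 in turn switches on genes for amino acid uptake and synthesis and for tRNA charging. Of 25 tested regulators and targets 18 rose and 3 fell (median 0.61), 9 of them by at least 2-fold. Trib3, a pseudokinase that feeds back on ATF4, measured 10.33 and 10.13 in the mutant, 7.83 and 7.81 in the trap line, 10.21 and 10.16 in the Hprt knockout and 7.48 and 7.47 in wild-type, a rise of 2.76 ± 0.07 (adjusted p = 2.17e-06). For Trib3 the mutant and Hprt knockout arrays overlapped (difference 0.05 ± 0.07, adjusted p = 0.589), and both lines stood above the trap line and wild-type. Stc2, a secreted glycoprotein, measured 8.99 and 8.88 in the mutant, 6.17 and 6.04 in the trap line, 8.61 and 8.75 in the Hprt knockout and 6.50 and 6.52 in wild-type, a rise of 2.43 ± 0.07 (adjusted p = 3.64e-06). Ddit4, an inhibitor of mTORC1, rose by 1.56 ± 0.06, and Gpt2, a mitochondrial alanine aminotransferase, by 1.28 ± 0.11. Chac1, a glutathione-degrading enzyme, rose by 3.68 ± 0.08 and had the largest difference of the list. The 4 eIF2 alpha kinases, which were added to the description after their values were seen, differed by -0.03 (Eif2ak4), -0.01 (Eif2ak1), 0.04 (Eif2ak3) and 0.05 (Eif2ak2), and none passed. The falls were small: Cebpb fell by 0.27, Atf5 by 0.22 and Nupr1 by 0.16.

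Most uptake and charging genes rose as well. Of 24 amino acid transporter genes 17 rose and 2 fell (median 0.46). Slc7a7, a light chain for cationic amino acids, rose by 1.24 ± 0.08, the neutral amino acid carrier Slc38a1 by 0.99 ± 0.06 and Slc1a4 by 0.92 ± 0.11. Slc3a2, the heavy chain that several exchangers share, measured 12.09 and 12.16 in the mutant, 11.01 and 11.08 in the trap line, 12.07 and 12.04 in the Hprt knockout and 11.41 and 11.39 in wild-type, a rise of 0.72 ± 0.05 (adjusted p = 6.13e-05). Slc36a4 fell by 0.67 and Slc7a6 by 0.45. Of 19 cytosolic tRNA synthetase genes 15 rose and none fell at the adjusted threshold (median 0.36), with Lars at 0.79 ± 0.06 and Aars at 0.61 ± 0.06.

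Serine and folate enzymes, which supply carbon units for nucleotides and methylation, rose in 15 of 20 cases and fell in 1 (median 0.45). Psph, the last step of serine synthesis, measured 10.97 and 10.97 in the mutant, 9.70 and 9.64 in the trap line, 11.02 and 10.99 in the Hprt knockout and 10.17 and 10.14 in wild-type, a rise of 0.82 ± 0.05 (adjusted p = 2.94e-05). Mthfd2, a mitochondrial folate enzyme, rose by 0.86 ± 0.06, and Gldc, which cleaves glycine, by 1.44 ± 0.05. Mthfd2l, the relative of Mthfd2, fell by 0.72 ± 0.10. Set against the other lines, the synthetases were higher in the mutant than in the trap line in 14 of 19 cases and lower in none, and against the Hprt knockout 1 was higher and 7 lower. The serine and folate enzymes were higher than in the trap line in 12 of 20 cases and lower in 2, and against the Hprt knockout 4 were higher and 10 lower. Over all genes 24.5% were higher and 24.7% lower against the trap line, and 24.9% and 36.3% against the Hprt knockout. The 7 synthetases lower than in the Hprt knockout were 36.8% of their list, near the share over all genes.

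ATF4 dimers bind a composite element written TGATGNAAN, where N is any base. It was looked for on both strands in the RefSeq promoter windows of build GRCm38.p6, from 250 bases before to 50 bases after each transcription start. It stood in 3.95% of all 32851 windows, in 8 of 26 windows of the amino acid stress genes (30.8%), in 5 of 12 of the synthetases (41.7%) and in 3 of 27 of the transporters (11.1%). The lists were made by known function and counted whatever the direction, so these shares do not bear on the differences. Nupr1, which fell, had a match, and Stc2, Ddit4 and Gpt2, which rose, had none. The windows of Chac1 and Trib3 are shown because these genes had the largest rises of the list. The Chac1 window (chr2:119350992-119351291, plus strand) holds a match that begins 194 bases before the start, and the Trib3 window (chr2:152344011-152344310, minus strand) holds one at base 14 of the transcript. Capitals mark the match, which in both reads on the opposite strand, and a match describes letters and not a bound site.
Chac1: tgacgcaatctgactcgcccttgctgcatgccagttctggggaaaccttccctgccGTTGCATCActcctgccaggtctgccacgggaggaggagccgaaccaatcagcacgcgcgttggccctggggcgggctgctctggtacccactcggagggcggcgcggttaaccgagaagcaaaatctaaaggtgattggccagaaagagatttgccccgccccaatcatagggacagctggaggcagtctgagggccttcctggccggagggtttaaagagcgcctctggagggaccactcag
Trib3: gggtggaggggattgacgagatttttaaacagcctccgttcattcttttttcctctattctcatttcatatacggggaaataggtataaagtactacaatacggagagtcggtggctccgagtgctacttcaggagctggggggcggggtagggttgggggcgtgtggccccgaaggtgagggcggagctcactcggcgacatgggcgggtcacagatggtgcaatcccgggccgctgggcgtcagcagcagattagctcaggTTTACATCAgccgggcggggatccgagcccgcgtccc

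Most chaperones of the endoplasmic reticulum fell. These proteins fold secreted and membrane proteins, and several are induced by the unfolded protein response. Of 26 tested genes 17 fell and 2 rose (median -0.20), and both mutant arrays lay below the other 6 for 9 of the 26, against 10% of all genes. Without the second wild-type array 10 fell. Hspa5, the main luminal chaperone, measured 12.17 and 12.11 in the mutant, 12.78 and 12.82 in the trap line, 12.69 and 12.58 in the Hprt knockout and 12.89 and 12.92 in wild-type, a fall of 0.77 ± 0.06 on the log2 scale (adjusted p = 6.74e-05). Xbp1, a transcription factor of the unfolded protein response, measured 11.45 and 11.44 in the mutant, 11.93 and 11.88 in the trap line, 11.79 and 11.78 in the Hprt knockout and 12.30 and 12.37 in wild-type, and fell by 0.89 ± 0.05 (adjusted p = 2.36e-05). In both genes the mutant was the lowest of the 4 lines. Dnajc3, a co-chaperone of Hspa5, fell by 0.62, Syvn1, a ubiquitin ligase of the degradation pathway, by 0.49, and Manf by 0.44. The 2 rises were Sdf2l1, a luminal partner of Hspa5, by 0.33 ± 0.06, and Herpud1, which organises that same degradation pathway. Herpud1 measured 9.96 and 9.94 in the mutant, 8.59 and 8.48 in the trap line, 9.38 and 9.39 in the Hprt knockout and 8.82 and 8.87 in wild-type, a rise of 1.11 ± 0.06 (adjusted p = 1.64e-05).

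Cytosolic chaperones moved in both directions. Of 29 tested genes 10 fell and 9 rose, and the median of 0.03 turned negative under cyclic loess scaling. Among the falls, Hspa1b fell by 2.29 ± 0.08, the small heat shock protein Cryab by 1.52 ± 0.09, Dnajb4 by 1.53 ± 0.06, Hspa1a by 0.87 ± 0.14 and Dnajb1 by 0.52 ± 0.05. Hspa8, the constitutive relative of Hspa1a, fell by 0.33 ± 0.05. Hspa1b measured 7.95 and 7.81 in the mutant, 8.99 and 9.14 in the trap line, 8.57 and 8.57 in the Hprt knockout and 10.12 and 10.22 in wild-type, so the mutant was lowest and the wild-type highest. Hspa1a and Hspa1b are near-identical genes, and their probe sets can share signal. The rises were small, with Hspa4 at 0.31, Hsp90aa1 at 0.28 and the chaperonin subunit Cct4 at 0.25. Leaving out the second mutant array or either wild-type array left 5 rises.

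Most glycolysis and hypoxia response genes were higher in the mutant than in wild-type, and many of them were higher there than in any other line. Of 26 glycolytic enzymes and transporters 20 rose and 3 fell (median 0.54), and both mutant arrays lay above the other 6 for 14 of the 26, against 9.46% of all genes. Aldoc, an aldolase, measured 8.50 and 8.86 in the mutant, 7.04 and 7.02 in the trap line, 7.30 and 7.16 in the Hprt knockout and 7.08 and 7.09 in wild-type, a rise of 1.60 ± 0.11 (adjusted p = 5.58e-05). Pfkl, the liver form of phosphofructokinase, measured 9.26 and 9.07 in the mutant, 8.08 and 8.04 in the trap line, 8.46 and 8.44 in the Hprt knockout and 8.27 and 8.24 in wild-type, a rise of 0.91 ± 0.07 (adjusted p = 7.04e-05). For both genes the other 3 lines lay close together and the mutant above them. Ldhb, a lactate dehydrogenase subunit, rose by 1.64 ± 0.07 and Eno2, a neuronal enolase, by 1.19 ± 0.07, but Ldhb did not pass against the Hprt knockout (adjusted p = 0.287) and Eno2 did not pass against the trap line (adjusted p = 0.267). Slc16a3, a lactate exporter, rose by 1.08 ± 0.18 with the wild-type below the filter level. The glucose transporter Slc2a3 rose by 0.38 ± 0.05. Pdk4, a pyruvate dehydrogenase kinase, fell by 0.65 ± 0.05, Pfkfb4 by 0.52 ± 0.07 and Hk2, a hexokinase, by 0.38 ± 0.06.

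The hypoxia list showed both directions. In low oxygen the factor HIF-1 is no longer hydroxylated by the EGLN enzymes and switches on genes for glycolysis, mitophagy and acid handling. Of 33 tested genes 23 rose and 7 fell (median 0.41), and both mutant arrays lay above the other 6 for 15 of the 33. Bnip3, which marks mitochondria for removal, measured 11.70 and 11.79 in the mutant, 9.53 and 9.44 in the trap line, 9.03 and 9.11 in the Hprt knockout and 9.62 and 9.60 in wild-type, a 4.39-fold rise (log2 2.14 ± 0.06, adjusted p = 2.85e-06). Egln3, an oxygen-sensing hydroxylase that is itself induced by HIF, measured 8.93 and 8.75 in the mutant, 7.79 and 7.91 in the trap line, 7.17 and 7.25 in the Hprt knockout and 7.08 and 7.08 in wild-type, a rise of 1.77 ± 0.08 (adjusted p = 1.11e-05). Neither gene overlapped between the mutant and any other line. Car9, a membrane carbonic anhydrase, measured 6.39 and 5.99 in the mutant and lay between 4.26 and 4.97 on the other 6 arrays, below the filter level in wild-type. Ppp1r3c, a glycogen-targeting subunit, rose by 1.23 ± 0.11, also with the wild-type below the filter level.

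The hypoxia list also held 7 falls. Epas1, which encodes HIF-2 alpha, fell by 1.03 ± 0.06 (adjusted p = 2.97e-05). Adm, the peptide adrenomedullin, fell by 0.87 ± 0.05, and Bhlhe40 by 0.57 ± 0.10. Vegfa, the vascular growth factor, measured 8.73 and 8.55 in the mutant, 7.50 and 7.67 in the trap line, 7.53 and 7.06 in the Hprt knockout and 9.26 and 9.15 in wild-type. Vegfa thus fell by 0.57 ± 0.15 against wild-type (adjusted p = 0.0178) and was higher than in the trap line by 1.05 (adjusted p = 0.00137) and the Hprt knockout by 1.35 (adjusted p = 0.000270). Without the first wild-type array 4 of the 33 fell.

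Against the other lines, 18 of the 26 glycolytic genes were higher in the mutant than in the trap line and 5 lower, and 15 were higher than in the Hprt knockout and 4 lower. For the hypoxia list 22 of 33 were higher than in the trap line and 4 lower, and 22 were higher than in the Hprt knockout and 6 lower. Over all genes 24.5% were higher and 24.7% lower against the trap line, and 24.9% and 36.3% against the Hprt knockout. Of 27 feeder markers 15 were lower in the mutant than in the trap line and 7 higher, and 24 were lower than in wild-type and 1 higher. All 27 were higher than in the Hprt knockout. The part of feeder RNA in these glycolysis and hypoxia differences was not tested. The HIF core element ACGTG, searched on both strands, stood in 19.6% of all windows, in 19 of 35 windows of the hypoxia list (54.3%) and in 19 of 38 of the glycolytic list (50%). Members were counted whatever their direction, and the lists were made by known function, so these shares do not bear on the differences. The windows of Bnip3 (chr7:138909457-138909756, minus strand) and Egln3 (chr12:54203825-54204124, minus strand) are shown as those of the largest rises of the list. Capitals mark the matches. In Bnip3 a match on each strand overlaps, beginning 108 and 107 bases before the start, and in Egln3 the match begins 229 bases before it.
Bnip3: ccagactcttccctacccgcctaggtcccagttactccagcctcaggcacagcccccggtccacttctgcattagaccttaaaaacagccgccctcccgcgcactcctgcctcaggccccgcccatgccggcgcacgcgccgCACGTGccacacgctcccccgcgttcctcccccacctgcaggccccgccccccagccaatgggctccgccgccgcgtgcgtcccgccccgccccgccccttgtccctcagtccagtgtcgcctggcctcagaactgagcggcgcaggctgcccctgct
Egln3: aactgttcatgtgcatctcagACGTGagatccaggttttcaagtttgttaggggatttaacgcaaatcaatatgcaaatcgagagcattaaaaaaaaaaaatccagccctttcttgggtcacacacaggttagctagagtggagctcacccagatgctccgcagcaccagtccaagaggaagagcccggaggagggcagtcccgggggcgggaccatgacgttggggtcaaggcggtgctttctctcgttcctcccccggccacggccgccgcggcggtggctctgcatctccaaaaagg

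Mitochondrial oxidation genes had small differences. Of 27 citrate cycle enzymes 10 rose and 2 fell (median 0.10), and of 48 respiratory chain subunits 12 rose and 2 fell (median 0.06). Both medians turned negative under cyclic loess scaling. Me2, a mitochondrial malic enzyme, had the largest rise of the citrate list at 0.56 ± 0.08, and Ndufv3, an accessory subunit of complex I, the largest of the chain at 0.51 ± 0.06. Uqcrb, a subunit of complex III, measured 14.01 and 14.13 in the mutant and 14.03 and 14.11 in wild-type. Without the first wild-type array 6 citrate cycle genes and 5 respiratory chain genes rose.

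Redox genes were near the background. Of 36 antioxidant and glutathione genes 11 were higher (30.6%) and 10 lower (27.8%), against 32.5% and 23.1% of all genes. Txnip, an inhibitor of thioredoxin that responds to glucose, measured 12.45 and 12.26 in the mutant, 9.72 and 9.81 in the trap line, 11.41 and 11.37 in the Hprt knockout and 10.63 and 10.59 in wild-type, a rise of 1.75 ± 0.08 (adjusted p = 1.06e-05). The mutant was the highest line. The glutathione transferase Gstt2 rose by 1.64 ± 0.11, and the microsomal transferase Mgst1 fell by 0.86 ± 0.05. Gpx8 and Gpx7, peroxidases of the endoplasmic reticulum, fell by 0.68 and 0.45.

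**Figure D2:**
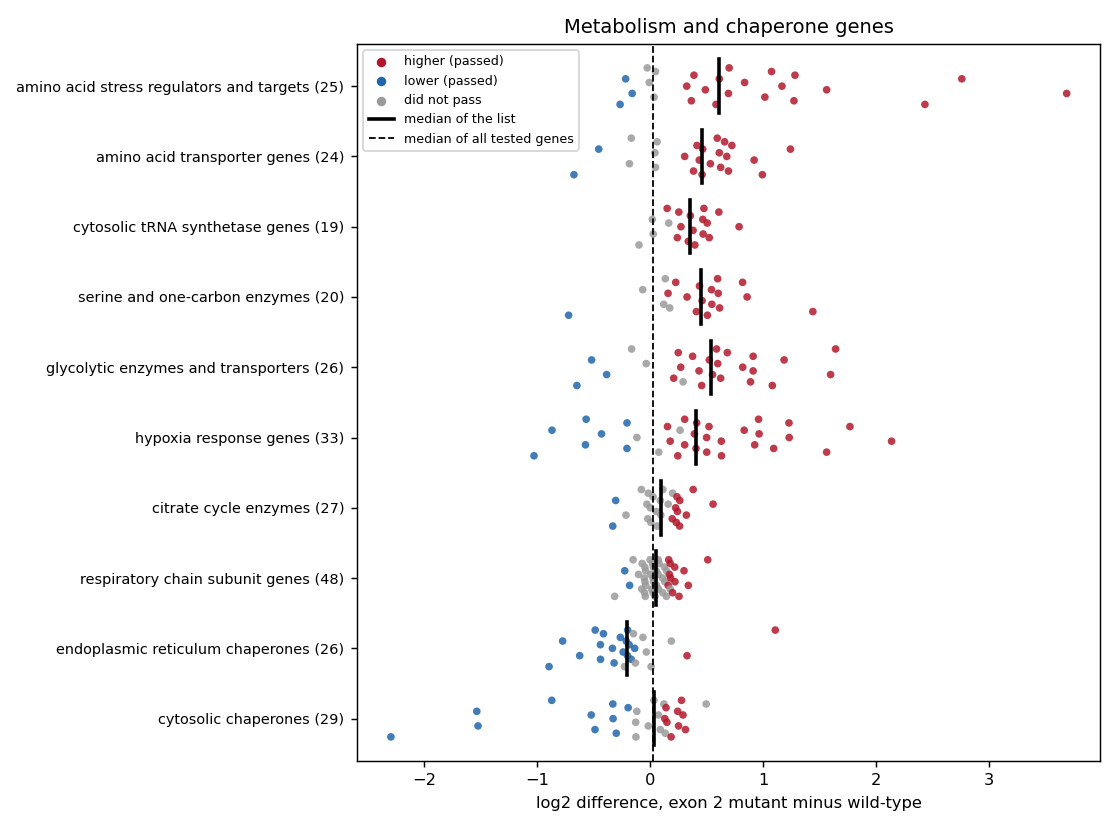
Log2 difference of every tested member, exon 2 mutant minus wild-type, for 10 lists of metabolism and chaperone genes, 1 point a gene, red where it passed as higher, blue where it passed as lower and grey where it did not pass. Black bars are list medians and the dashed line is the median of all tested genes, 0.03. The amino acid and glycolysis lists lie to the right, citrate cycle and respiratory chain genes stay near 0, and most endoplasmic reticulum chaperones lie to the left, with Herpud1 furthest to the right at 1.11.

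The largest falls of any signalling list were in targets of SRF and YAP. Serum response factor, with its actin-regulated partners, and YAP with TEAD factors switch on cytoskeletal and matrix genes in spread, contractile cells. Of 35 tested genes 29 fell and 2 rose (median -0.96), 17 of them by at least 2-fold. Ccn1, a matrix-associated YAP target, measured 10.065 and 10.003 in the mutant, 9.39 and 9.34 in the trap line, 9.54 and 9.46 in the Hprt knockout and 12.73 and 12.68 in wild-type, and fell by 2.67 ± 0.06 (adjusted p = 1.34e-06). Cnn1, the smooth muscle calponin, measured 8.02 and 8.05 in the mutant, 6.95 and 6.87 in the trap line, 6.09 and 5.95 in the Hprt knockout and 10.34 and 10.35 in wild-type, and fell by 2.31 ± 0.06 (adjusted p = 2.37e-06). For both genes the wild-type arrays stood above all others and the mutant above the trap line. Ankrd1 fell by 2.42 ± 0.05 and Thbs1, thrombospondin, by 2.22 ± 0.08. The 2 rises were Yap1, by 0.20 ± 0.05, and its partner Tead2, by 0.52 ± 0.07. Actb, cytoplasmic actin, fell by 0.23 ± 0.05.

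For these genes the wild-type was the highest line. Both wild-type arrays lay above the other 6 for 28 of the 35 genes, against 12.8% of all genes. Against the trap line 13 of the 35 were higher in the mutant and 8 lower (median -0.07), where 24.5% and 24.7% of all genes were. Against the Hprt knockout 25 were higher and 2 lower (median 0.57), where 24.9% and 36.3% of all genes were. Feeder fibroblasts express many of these genes. The summed feeder markers measured 16.99 and 17.01 in the mutant and 17.41 and 17.42 in wild-type, and their part in the falls was not tested.

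Srf itself fell by 1.89 and Vcl, the focal adhesion protein vinculin, by 1.79 on the log2 scale. Both genes and both motifs were chosen after values were seen. The CArG box, the element bound by SRF, stood in 1.63% of all windows and in 7 of 34 windows of the list (20.6%). The TEAD element GGAATG, searched on both strands, stood in 14.7% of all windows and in 16 of 34 of the list (47.1%). The list was made of SRF and YAP targets and counted whatever their direction, so these shares do not bear on the falls. Srf and Vcl are among the 6 genes of the list with a CArG box, of 28 with a window. The windows of Ccn1, Ankrd1 and Cnn1, which fell further, held none, and Thbs1 had no window. The Srf window (chr17:46556113-46556412, minus strand) holds 2 CArG boxes, beginning 82 and 62 bases before the start, and the Vcl window (chr14:20929148-20929447, plus strand) holds 1, beginning 227 bases before it. Capitals mark the boxes.
Srf: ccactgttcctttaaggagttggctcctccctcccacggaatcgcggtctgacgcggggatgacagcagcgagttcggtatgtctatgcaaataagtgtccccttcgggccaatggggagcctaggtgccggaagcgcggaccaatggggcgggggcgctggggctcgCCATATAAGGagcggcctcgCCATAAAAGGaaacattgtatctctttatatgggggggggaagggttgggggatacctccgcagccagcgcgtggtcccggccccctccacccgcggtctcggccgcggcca
Vcl: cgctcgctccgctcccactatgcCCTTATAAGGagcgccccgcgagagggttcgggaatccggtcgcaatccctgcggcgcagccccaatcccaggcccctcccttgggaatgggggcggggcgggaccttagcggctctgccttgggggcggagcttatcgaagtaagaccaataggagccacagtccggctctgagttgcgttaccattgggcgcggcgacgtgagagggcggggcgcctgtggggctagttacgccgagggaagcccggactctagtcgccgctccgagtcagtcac

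Most ERK feedback genes fell, while core genes of the pathway moved in both directions. In this cascade RAS activates RAF, MEK and ERK, and ERK induces its own phosphatases (the DUSPs) and inhibitors (the Sprouty proteins), so that their transcripts follow its activity. Of 23 feedback and target genes 16 fell and 2 rose (median -0.67), and both mutant arrays lay below the other 6 for 8 of the 23, against 10% of all genes. Dusp5, a nuclear ERK phosphatase, measured 6.89 and 7.01 in the mutant, 7.18 and 7.47 in the trap line, 7.46 and 7.26 in the Hprt knockout and 9.15 and 9.25 in wild-type, and fell by 2.25 ± 0.11 (adjusted p = 1.76e-05). Spry4, a Sprouty inhibitor, measured 7.76 and 7.33 in the mutant, 9.01 and 9.23 in the trap line, 8.65 and 8.71 in the Hprt knockout and 9.27 and 9.68 in wild-type, and fell by 1.93 ± 0.18 (adjusted p = 0.000149). The mutant arrays were the lowest for both genes. Ereg, an EGF receptor ligand, fell by 2.63 ± 0.08, Phlda1 by 1.76 ± 0.06, and Ier3 by 1.12 ± 0.05, with Ereg and Ier3 lowest in the Hprt knockout, as the feeder markers were. Etv5, an ETS factor of stem cells, rose by 0.56 ± 0.06.

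Of 18 core genes of the pathway 5 rose (27.8%) and 7 fell (38.9%), against 32.5% and 23.1% of all genes (median -0.07). The adaptor Gab1 rose by 0.68 ± 0.05, Nras by 0.58 ± 0.05, Braf by 0.47 ± 0.06 and the ERK kinase gene Map2k1 by 0.23 ± 0.05. The RAS GTPase-activating genes Rasa1 and Nf1 fell by 0.61 ± 0.09 and 0.31 ± 0.07, and the phosphatase gene Ptpn11 by 0.37 ± 0.05. Araf fell by 0.39 on its brightest probe set and rose on 2 others, so it is uncertain. Without the second wild-type array 4 of the 18 fell.

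Nodal and BMP pathway genes are given here by role. Nodal, through SMAD2 and SMAD3, induces its own ligand and its inhibitors, the Lefty proteins, whereas BMPs act through SMAD1 and SMAD5 on the Id genes. Of 20 Nodal and activin genes 8 rose and 5 fell, and the median of 0.07 turned negative under cyclic loess scaling. Among the ligands, Nodal measured 10.92 and 10.96 in the mutant, 10.63 and 10.62 in the trap line, 11.65 and 11.61 in the Hprt knockout and 10.27 and 10.24 in wild-type, and rose by 0.68 ± 0.05 (adjusted p = 5.23e-05). Inhba, the activin A chain, fell by 2.54 ± 0.10 but did not pass against the trap line (difference 0.003, adjusted p = 0.981). Like the feeder markers, Inhba was lowest in the Hprt knockout, at 6.84 and 6.65, and highest in wild-type. The receptors Acvr1b and Acvr2b rose by 0.83 ± 0.06 and 0.61 ± 0.06. Among the inhibitors, Lefty2 measured 9.63 and 9.54 in the mutant, 7.88 and 7.91 in the trap line, 7.61 and 7.59 in the Hprt knockout and 7.12 and 7.22 in wild-type, a rise of 2.42 ± 0.06 (adjusted p = 1.72e-06), and follistatin (Fst) fell by 1.77 ± 0.07. Lefty2 was highest in the mutant, and Nodal in the Hprt knockout.

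Of 23 BMP genes 14 fell and 1 rose (median -0.24). Id1, an inhibitor of basic helix-loop-helix factors and a direct BMP target, measured 7.85 and 7.86 in the mutant, 9.81 and 9.83 in the trap line, 8.44 and 8.42 in the Hprt knockout and 10.58 and 10.56 in wild-type, a 6.58-fold fall (log2 -2.72 ± 0.05, adjusted p = 8.34e-07). Id2 measured 6.87 and 6.27 in the mutant, 7.94 and 8.01 in the trap line, 7.91 and 7.94 in the Hprt knockout and 8.28 and 8.35 in wild-type, and fell by 1.75 ± 0.17 (adjusted p = 0.000193). For both Id genes the mutant was the lowest line. Id4 rose by 0.43 ± 0.07. The receptor gene Bmpr1b fell by 1.79 ± 0.12, Bmpr1a by 0.17 ± 0.06, and the secreted antagonists Grem1 and Bmper by 1.35 each. Against the trap line 1 of the 23 BMP genes was higher in the mutant and 8 lower (24.5% and 24.7% of all genes). Against the Hprt knockout 13 were higher and 5 lower (24.9% and 36.3% of all genes).

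Of the Wnt genes 9 of 47 were higher (19.1%) and 10 lower (21.3%), against 32.5% and 23.1% of all genes (median -0.13). Lef1, a nuclear partner of beta-catenin, was the exception in size and measured 9.07 and 8.79 in the mutant, 7.45 and 7.37 in the trap line, 7.64 and 7.71 in the Hprt knockout and 7.40 and 7.35 in wild-type, a rise of 1.56 ± 0.09 (adjusted p = 2.95e-05). Its level was above all other lines. Dvl2, a scaffold of the receptor complex, rose by 0.93 ± 0.06, and the target genes Axin2 and Notum by 0.52 ± 0.09 and 0.47 ± 0.05. The receptor Fzd1 fell by 0.96 ± 0.06, the ligand carrier Wls by 0.85 ± 0.09 and the secreted antagonist Frzb by 0.81 ± 0.07, and all 3 were lowest in the Hprt knockout. Ctnnb1, beta-catenin, differed by 0.01 ± 0.05.

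FGF genes were mixed, with 4 of 21 higher (19.0%) and 7 lower (33.3%), against 32.5% and 23.1% of all genes. Fgf4, the autocrine ligand of stem cells, measured 9.76 and 9.70 in the mutant, 10.59 and 10.54 in the trap line, 11.74 and 11.74 in the Hprt knockout and 9.78 and 9.74 in wild-type, and did not pass (adjusted p = 0.613). Fgfbp1, a carrier that releases FGFs from the matrix, fell by 2.22 ± 0.12. Il17rd, an inhibitor of FGF signalling, rose by 0.69 ± 0.06. Of 22 Notch genes 8 rose (36.4%) and 3 fell (13.6%), so the share of rises was near that over all genes. The ligand Dll1 rose by 1.39 ± 0.16 and the nuclear effector Rbpj by 0.73 ± 0.05. Of 21 retinoic acid genes 3 rose and 10 fell (median -0.16), among them Cyp26a1, which degrades retinoic acid, with a fall of 0.94 ± 0.10.

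Calcium entry genes were listed because cytoplasmic TFII-I limits calcium entry. Of 22 store-operated and TRP channel genes 7 rose (31.8%) and 6 fell (27.3%), with a median of -0.09. These shares were near those over all genes, 32.5% and 23.1%. Trpm1, a TRP channel of melanocytes and retina, measured 9.57 and 9.55 in the mutant, 8.89 and 8.88 in the trap line, 7.25 and 7.24 in the Hprt knockout and 6.69 and 7.14 in wild-type, a rise of 2.64 ± 0.13 (adjusted p = 1.57e-05). Orai3 rose by 0.95 ± 0.05 and Trpc2 by 0.85 ± 0.10, and the store-operated pore gene Orai1 and its sensor Stim2 fell by 0.59 ± 0.06 and 0.31 ± 0.07. Plcg1, phospholipase C gamma 1, rose by 0.45 ± 0.05 and did not pass against the trap line (adjusted p = 0.498). Without the first wild-type array 3 of the 22 fell.

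**Figure D3:**
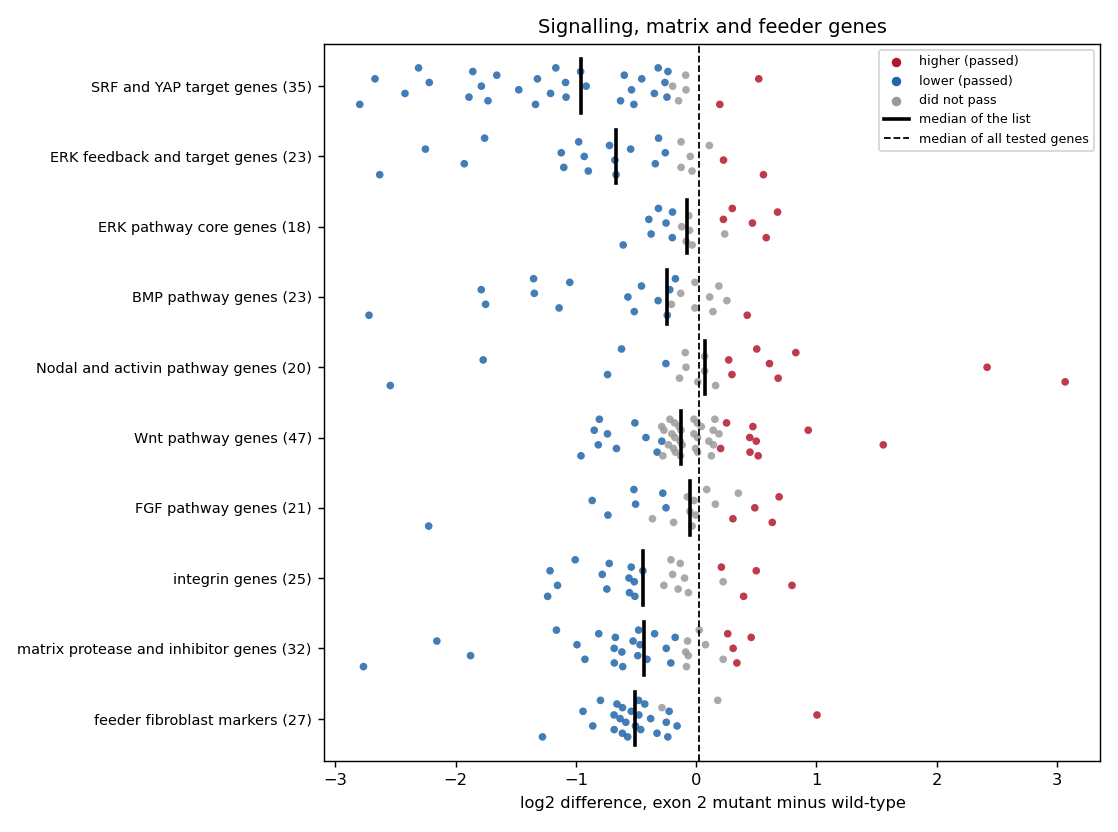
Log2 difference of every tested member, exon 2 mutant minus wild-type, for 10 lists of signalling, matrix and feeder genes, coloured as passed higher (red), passed lower (blue) or did not pass (grey). Black bars are list medians and the dashed line the median of all tested genes. SRF and YAP targets and ERK feedback genes reach further left than the feeder markers, whose lowest member lies at -1.28.

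Most pluripotency factors were higher in the mutant. Of 30 tested genes 24 rose and 2 fell (median 0.36). Sall1 rose by 1.60 ± 0.11, Prdm14, a repressor of the primed state, by 1.30 ± 0.08, Tet1 by 1.19 ± 0.08 and Klf2 by 1.17 ± 0.06. Klf2 measured 11.31 and 11.37 in the mutant, 11.39 and 11.28 in the trap line, 10.998 and 10.96 in the Hprt knockout and 10.15 and 10.19 in wild-type, so the wild-type arrays were the lowest. Both wild-type arrays lay below the other 6 for 16 of the 30 genes, against 24.3% of all genes. Against the trap line 12 of the 30 were higher in the mutant and 6 lower (24.5% and 24.7% of all genes). The 2 falls were in Foxd3 and Nanog. Foxd3, which keeps stem cells undifferentiated, measured 7.02 and 6.72 in the mutant, 8.64 and 8.74 in the trap line, 7.66 and 7.71 in the Hprt knockout and 8.44 and 8.36 in wild-type, a fall of 1.53 ± 0.10 (adjusted p = 3.93e-05). Nanog measured 12.28 and 12.15 in the mutant, 12.44 and 12.50 in the trap line, 12.35 and 12.26 in the Hprt knockout and 12.53 and 12.53 in wild-type, a fall of 0.32 ± 0.06 (adjusted p = 0.00480). As for the replication genes, feeder markers were lower in the mutant than in wild-type, and their part in the rises was not tested.

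Endoderm markers were mostly lower in the mutant. Of 15 endoderm markers 10 fell and 1 rose (median -0.73). Both mutant arrays lay below the other 6 for 7 of the 15. Cubn, an endocytic receptor of visceral endoderm, measured 5.62 and 5.84 in the mutant, 6.24 and 5.93 in the trap line, 8.71 and 8.74 in the Hprt knockout and 7.16 and 7.10 in wild-type, a fall of 1.40 ± 0.11 (adjusted p = 8.77e-05). Sox7 fell by 0.96 ± 0.09 and Sox17 by 1.15 ± 0.13. Sox17, Afp and Foxa2 fell to below the filter level in the mutant, where the median level of the list was 6.07. Of 12 streak and mesoderm markers 5 fell and none rose at the adjusted threshold, with Snai1 lower by 1.18 ± 0.09. Cdx1 was below the filter level in the mutant, and the median mutant level of this list was 5.93, against a filter level of 5.35. Of 15 early neural markers 7 rose and 5 fell. The falls were in Nefm by 2.55 ± 0.10, the largest difference of the list, Nes by 0.87 ± 0.09, Map2 by 0.51, and Gap43 and Nefl by 0.29 each. Neurod1, a neuronal factor, rose by 1.48 ± 0.07 but was highest in the Hprt knockout at 11.007 and 10.999, and Pax6 measured 7.04 and 6.72 in the mutant and 5.79 and 5.68 in wild-type, a rise of 1.15 ± 0.20 (adjusted p = 0.00281). Sox1 measured 6.33 and 5.33 in the mutant, 2 arrays far apart, and was below the filter level in wild-type. Of 6 tested trophoblast markers 2 rose, and Tfap2c rose by 1.12 ± 0.09.

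Many chromatin genes were higher in the mutant. Of 38 BAF and NuRD genes 21 rose and 2 fell (median 0.20), of 37 histone methyltransferases and demethylases 22 rose and 2 fell (median 0.21), and of 20 DNA methylation and demethylation genes 13 rose and 3 fell (median 0.21). Smarca4, the BAF ATPase of stem cells, rose by 0.52 ± 0.05 and its relative Smarca2 fell by 0.60 ± 0.13. Nsd1, a histone H3 lysine 36 methyltransferase, rose by 1.00 ± 0.06, and the demethylases Kdm4c and Kdm4a by 0.96 ± 0.08 and 0.80 ± 0.07. Uhrf1, which directs DNA methylation to replicated DNA, measured 12.65 and 12.62 in the mutant, 11.74 and 11.72 in the trap line, 12.26 and 12.30 in the Hprt knockout and 11.77 and 11.75 in wild-type, a rise of 0.88 ± 0.05 (adjusted p = 2.12e-05). It was highest in the mutant. Dnmt3b, a de novo methyltransferase, rose by 0.78 ± 0.06, Apobec1, a cytidine deaminase, by 1.54 ± 0.06, and Gadd45b fell by 1.06 ± 0.07. Polycomb genes split, with 12 of 28 higher and 7 lower. Phc1 rose by 1.01 ± 0.05 and Ezh2, the H3 lysine 27 methyltransferase, by 0.54 ± 0.05, while Yaf2 fell by 0.62 ± 0.05. With either array of either line left out, 3 or 4 of the Polycomb genes fell, and without the first wild-type array 14 of the histone enzymes rose. With the mean of all probe sets 12 of the BAF and NuRD genes rose.

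Mycn and Myc moved in opposite directions. Mycn measured 11.67 and 11.77 in the mutant, 10.72 and 10.65 in the trap line, 11.96 and 11.87 in the Hprt knockout and 10.39 and 10.34 in wild-type, a rise of 1.36 ± 0.06 (adjusted p = 1.32e-05). Myc measured 8.94 and 9.07 in the mutant, 9.73 and 9.72 in the trap line, 8.31 and 8.44 in the Hprt knockout and 9.93 and 10.03 in wild-type, a fall of 0.98 ± 0.07 (adjusted p = 6.73e-05). The lines kept opposite orders for these genes. Mga, a partner of the dimer MAX, rose by 1.11 ± 0.11 and Mxd4, an antagonist, fell by 0.87 ± 0.05. Of 39 ribosome biogenesis genes 14 rose (35.9%) and 8 fell (20.5%), near the 32.5% and 23.1% of all genes. The rises were led by Nat10 at 0.58 ± 0.05 and the falls by Nop16 at -0.65 ± 0.05. Of 37 proteasome subunits 6 rose and 6 fell (16.2% each), below the shares over all genes. Psmb8, an immunoproteasome subunit, fell by 0.59 ± 0.12. Without the first wild-type array 9 ribosome biogenesis genes rose and 5 fell, and 3 proteasome subunits rose and 2 fell.

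Of 26 D cyclins and cell cycle inhibitors 10 rose (38.5%) and 9 fell (34.6%), against 32.5% and 23.1% of all genes. Cdkn1b, the inhibitor p27, measured 9.54 and 9.34 in the mutant, 8.04 and 8.48 in the trap line, 9.14 and 9.06 in the Hprt knockout and 8.24 and 8.19 in wild-type, a rise of 1.22 ± 0.14 (adjusted p = 0.000409), and E2f7 rose by 0.98 ± 0.05. Cdkn2a fell by 0.94 ± 0.14 and was, like the feeder markers, lowest in the Hprt knockout. Of 27 BCL2 family and caspase genes 9 rose (33.3%) and 11 fell (40.7%). Bmf, a BH3-only activator of apoptosis, rose by 2.20 ± 0.11 and Casp9 by 1.18 ± 0.08, whereas Mcl1 differed by -0.01. Bmf did not pass against the Hprt knockout (adjusted p = 0.237). The largest falls were in Casp4 by 0.99 ± 0.13, Casp12 by 0.75 ± 0.08 and Bok by 0.72 ± 0.07. Casp4 and Casp12 were, like the feeder markers, lowest in the Hprt knockout. Of 38 lysosome and autophagy genes 11 rose and 15 fell, with the autophagy genes Atg12, Ulk1 and Atg5 up by 0.73, 0.64 and 0.63 and the cathepsins Ctsh, Ctsc, Ctsd and Ctsl down by 0.95, 0.52, 0.41 and 0.24 on the log2 scale. Of 37 splicing regulators 10 rose and 10 fell (27.0% each), near the shares over all genes, and the epithelial splicing factor Esrp1 rose by 1.88 ± 0.07. Without the first wild-type array 6 splicing regulators rose and 5 genes of the D cyclin list fell.

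Integrin, basement membrane and matrix protease genes fell more often than they rose. Of 25 integrin genes 13 fell and 4 rose (median -0.44), of 23 basement membrane genes 12 fell and 2 rose (median -0.20), and of 32 matrix proteases and inhibitors 21 fell and 4 rose (median -0.44). Itga5, the fibronectin receptor chain, fell by 1.23 ± 0.09 and Itgb1 by 0.78 ± 0.06. Timp3, a metalloprotease inhibitor, measured 8.41 and 8.54 in the mutant, 10.29 and 10.30 in the trap line, 7.63 and 7.52 in the Hprt knockout and 11.27 and 11.22 in wild-type, a fall of 2.77 ± 0.07 (adjusted p = 1.72e-06). Plaur and Plau, the urokinase receptor and its ligand, fell by 2.15 ± 0.06 and 1.88 ± 0.08. Lama1, a laminin chain of the embryonic basement membrane, measured 7.36 and 7.22 in the mutant, 7.60 and 7.59 in the trap line, 9.60 and 9.60 in the Hprt knockout and 8.78 and 8.80 in wild-type, and fell by 1.498 ± 0.06 (adjusted p = 7.80e-06). Lama1 was highest in the line with the least feeder RNA, unlike Timp3. Fibroblasts are a main source of matrix proteins, the feeder markers were lower by a median of 0.50, and their part in these falls was not tested.

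Of 34 epithelial junction genes 16 rose and 8 fell (median 0.25). Cdh1, the E-cadherin of stem cells, rose by 0.93 ± 0.06, Dsp, a desmosomal protein, by 1.17 ± 0.09 and Dsg2 by 1.07 ± 0.05. Cdh2, the N-cadherin, fell by 0.82 ± 0.11. The keratins Krt8 and Krt18 fell by 1.69 ± 0.15 and 1.32 ± 0.09. Of 56 axon guidance genes 12 rose and 19 fell. Sema7a fell by 1.94 ± 0.11 and Nrp1, a semaphorin receptor, by 1.31 ± 0.14, and Sema4d rose by 0.91 ± 0.05. Of 16 MHC class I presentation genes 9 fell and 2 rose (median -0.35), with H2-D1 lower by 0.89 ± 0.07 and B2m by 0.55 ± 0.06; the class I genes H2-D1 and H2-K1 are similar in sequence and can share signal. Against the feeder-poor Hprt knockout 12 of the 16 were higher in the mutant and none lower at the adjusted threshold (median 0.98). The shares over all genes there were 24.9% higher and 36.3% lower. Both wild-type arrays lay above the other 6 for 9 of the 16, against 12.8% of all genes. The part of feeder RNA in the class I result was not tested. Irf1, an interferon-induced factor, rose by 0.65 ± 0.08.

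Set beside the other lines, the list medians showed several patterns. Glycolysis, hypoxia and amino acid stress genes were higher in the mutant than in all 3 lines by their medians. The amino acid stress medians were 0.61 against wild-type, 0.66 against the trap line and 0.26 against the Hprt knockout. Endoplasmic reticulum chaperones (-0.20, -0.19 and -0.09 in that order) and ERK feedback genes (-0.67, -0.37 and -0.15) were lower than in all 3. Over all tested genes the medians were 0.03, -0.01 and -0.09 in that order, so the chaperones stood at the overall level against the Hprt knockout. Replication, repair and tRNA synthetase genes were, by the same measure, higher than in the trap line and wild-type and lower than in the Hprt knockout. SRF and YAP targets differed from wild-type, but their median against the trap line was -0.07.

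**Figure D4:**
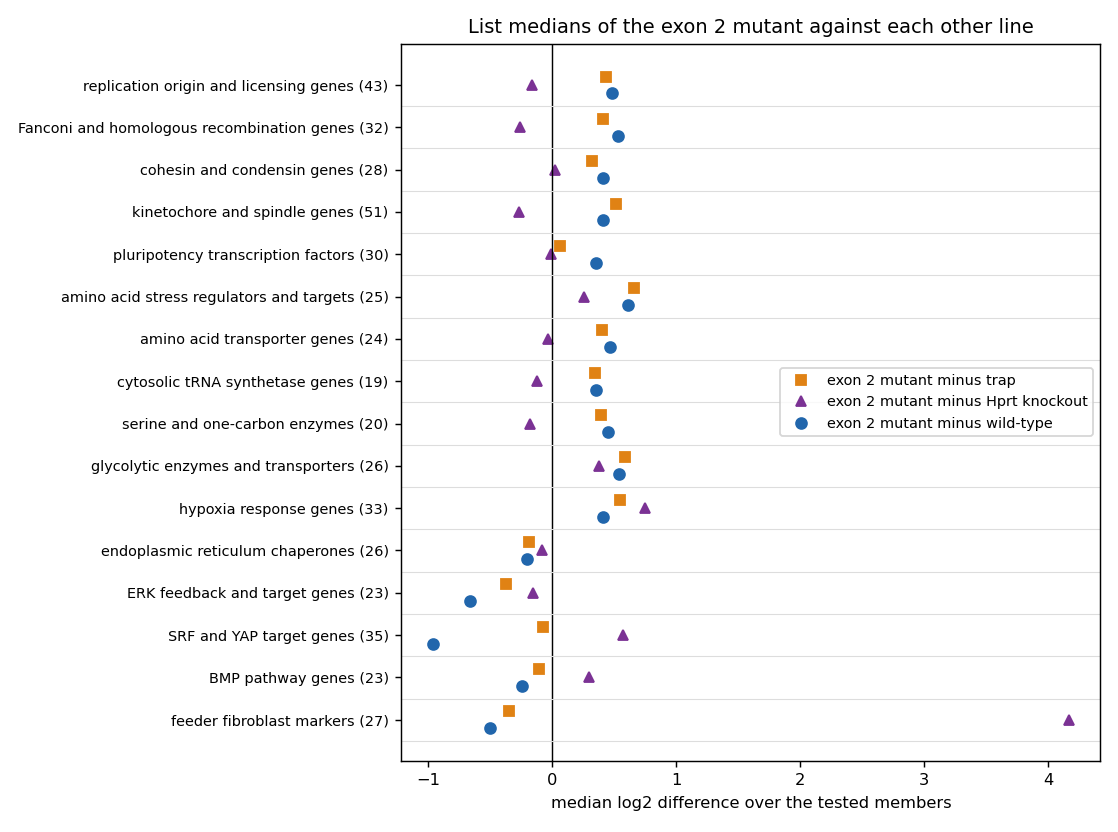
Median log2 difference over the tested members of 16 gene lists, exon 2 mutant minus trap (squares), minus Hprt knockout (triangles) and minus wild-type (circles). The 3 medians of a list share the mutant arrays. Glycolysis has medians of 0.59, 0.38 and 0.54 and hypoxia of 0.55, 0.75 and 0.41 in that order, while the feeder markers lie at 4.16 against the Hprt knockout.

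Below the 10 largest changes in each direction, the next 20 were read in the same way, leaving out clone and predicted names. Among the rises were 6 genes described above (Lefty2, Bnip3, Egln3, Txnip, Bmf and Esrp1) and Mgarp, a mitochondrial protein. Mgarp measured 8.49 and 8.47 in the mutant, 5.63 and 5.81 in the trap line, 6.80 and 6.68 in the Hprt knockout and 6.16 and 6.26 in wild-type, a rise of 2.27 ± 0.08 (adjusted p = 6.16e-06). Panct2, a noncoding RNA, measured 8.26 and 8.16 in the mutant and lay between 6.11 and 6.87 on the other 6 arrays, a rise of 2.06 ± 0.09 (adjusted p = 9.87e-06). For both genes the mutant stood above every other line. Dus4l, a tRNA dihydrouridine synthase, rose by 1.98 ± 0.09, Ttpa, the transfer protein of vitamin E, by 2.02 ± 0.08, Slc16a6, a carrier of the monocarboxylate family, by 1.85 ± 0.09 and Bcdin3d, an RNA methyltransferase, by 1.86 ± 0.10, and none of these 4 passed against the Hprt knockout. Dpys, which breaks down pyrimidines, rose by 2.15 ± 0.07 and did not pass against the trap line (adjusted p = 0.417). The other rises were Patl2, Lrrc2, Noxred1, Zfp811, Mcf2, Mymx and Tnfrsf19, from 2.21 for Patl2 to 1.73 for Tnfrsf19.

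The falls of the same ranks ran to 20 genes. Ptgs2, the inducible cyclooxygenase, measured 9.93 and 9.53 in the mutant, 10.26 and 10.39 in the trap line, 5.24 and 5.31 in the Hprt knockout and 12.28 and 12.43 in wild-type, a fall of 2.62 ± 0.13 (adjusted p = 1.71e-05). Nr4a1, an orphan nuclear receptor, measured 8.04 and 7.98 in the mutant, 9.06 and 8.99 in the trap line, 9.22 and 9.12 in the Hprt knockout and 10.40 and 10.58 in wild-type, a fall of 2.48 ± 0.08 (adjusted p = 3.68e-06). Nr4a1 was lowest in the mutant, whereas Ptgs2 was lowest in the line with the least feeder RNA. Lif, the cytokine that holds stem cells undifferentiated, measured 7.66 and 7.81 in the mutant, 8.05 and 8.04 in the trap line, 6.83 and 6.84 in the Hprt knockout and 10.30 and 10.26 in wild-type, a fall of 2.54 ± 0.06 (adjusted p = 1.72e-06), and the medium held added LIF. Hbegf, an EGF receptor ligand, fell by 2.48 ± 0.05. Lcn2, the iron carrier lipocalin, fell by 2.52 ± 0.13, with 10.65 and 10.73 in the trap line and 10.91 and 10.91 in wild-type. It was lowest in the Hprt knockout, at 4.375 and 4.777. Ctla2a, a protease inhibitor, fell by 2.56 ± 0.10, with 9.17 and 9.20 in the trap line, above both wild-type arrays. It too was lowest in the Hprt knockout, at 5.27 and 5.20. Srgn, serglycin, measured 7.55 and 7.46 in the mutant, 8.15 and 8.22 in the trap line, 10.56 and 10.47 in the Hprt knockout and 9.63 and 9.81 in wild-type, a fall of 2.22 ± 0.08 (adjusted p = 6.20e-06). The remaining falls were Slco4a1, Nefm, Inhba, Ankrd1, Lurap1l, Cnn1, Hspa1b, Dusp5, Vgll3, Fgfbp1, Thbs1, Zfp469 and Vasn, from -2.61 for Slco4a1 to -2.18 for Vasn. Like the feeder markers, Lif, Hbegf, Inhba, Ankrd1, Lurap1l, Cnn1, Vgll3, Thbs1, Zfp469 and Vasn were lowest in the Hprt knockout. Slco4a1, Hspa1b, Dusp5, Fgfbp1 and Srgn were, like Nr4a1, lowest in the mutant. The part of feeder RNA in these falls was not tested.

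**Figure D5:**
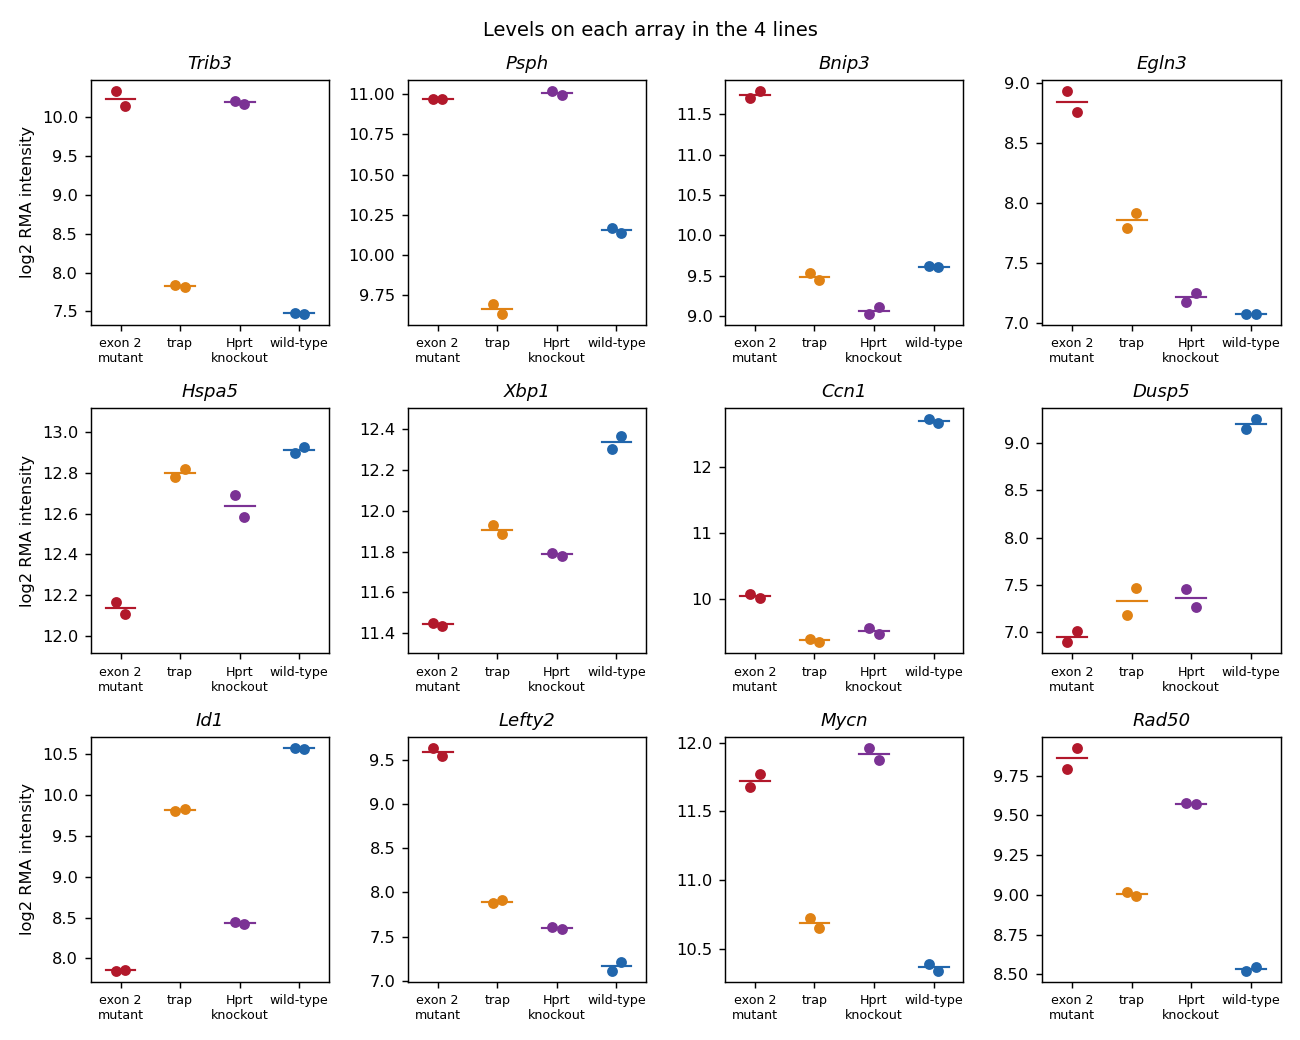
Log2 RMA intensity of 12 genes on each of the 8 arrays, in the exon 2 mutant, the trap line, the Hprt knockout and wild-type, with 1 point an array and a bar for the group mean; vertical axes differ between panels and do not start at 0. Bnip3, Egln3 and Lefty2 are highest in the mutant, Hspa5, Xbp1, Dusp5 and Id1 lowest in the mutant, Ccn1 highest in wild-type, and Trib3, Psph and Mycn high in both the mutant and the Hprt knockout.

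Median differences by chromosome were small. They ran from -0.02 (chromosomes 1 and 3) to 0.07 (chromosome 17) over the autosomes and the X chromosome. On the Y chromosome 5 of 7 tested genes were lower in the mutant, against 23.1% of all genes, with a median of -0.39. Of these 5, Orly and Usp9y were below the filter level in the mutant. Eif2s3y, the brightest of the 7, measured 10.245 and 10.045 in the mutant and 10.255 and 10.316 in wild-type. It did not pass (adjusted p = 0.147), and neither did Uty (adjusted p = 0.781). Xist, chosen after its values were seen, measured 11.85 and 11.78 in the mutant and 11.91 and 11.82 in wild-type and did not pass (adjusted p = 0.516). It measured 10.57 and 10.64 in the trap line and 8.82 and 8.89 in the Hprt knockout. Xist was thus lowest in the line with the least feeder RNA, and the part of feeder RNA in its level was not tested. The choice of probe set mattered for some genes. Of 6577 further probe sets of called genes 5442 (82.7%) had the direction of the brightest, and where the further probe set passed too, 3075 of 3224 (95.4%) did.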

How the data were processed

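Expression was measured on Affymetrix mouse arrays, 2 for each of 4 lines. The values are log2 intensities deposited by the authors after RMA, per the submitters' processing notes; the RMA release was not given in the sources used here. RMA forces the arrays to 1 distribution (array medians 5.96 to 6.02), so a change shared by most genes is not visible, and the number of arrays limits the precision. Arrays were grouped by title. Of 45101 probe sets, 64 were controls, 34945 carried 1 gene symbol in the platform annotation, 932 several and 9160 none; 9010 genes had several probe sets. The gene-level table was tested with limma 3.58.1 in R 4.3.3 on all 8 arrays (4 residual degrees of freedom, 6.86 after moderation), with Benjamini-Hochberg adjustment over all tested genes. The filter level averaged 5.35. The test was also tested on simulated data. An exact permutation test of 2 arrays against 2 cannot go below p = 0.333 and was not used. Replicates correlated at 0.9966 to 0.998.

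Named genes were, in each list, up to 5 of the largest rises and 5 of the largest falls that passed and the member with the highest mean, the targeted genes on every probe set, and ranks 11 to 30 of the changes in each direction whose groups did not overlap. The members and lists were chosen with earlier results of these data known. Alternatives were cyclic loess scaling, no filter, a filter at the 60th percentile, the 4 compared arrays alone, the mean of all probe sets, another variance prior, the replicate number as a block, and leaving out each array. Promoter windows came from RefSeq (GRCm38.p6). Positions of probes in exons and protein sequences were not analysed here.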

Additional observations from a re-analysis of the deposited data

How the results depend on the processing

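The 7674 calls became 7710 after cyclic loess scaling, 7398 without a filter, 7252 with the filter at the 60th percentile, 7097 with the 4 compared arrays alone, 6906 with the mean of all probe sets, 7988 with the other variance prior, and 6114 to 6931 when 1 array was left out. With the mean of all probe sets 251 genes were at least 2-fold higher, against 409; fewer genes were tested there (13028). The replicate numbers did not pair the mutant and wild-type arrays (correlation of deviations -0.25). With the replicate block 7248 genes were called, and with the crossed pairing, chosen after seeing the data, 7563. Cyclic loess turned 8 list medians negative: early neural markers -0.0015, Nodal and activin genes -0.0435, citrate cycle enzymes -0.0021, respiratory chain subunits -0.0253, antioxidant genes -0.0517, cytosolic chaperones -0.0285, splicing regulators -0.0397 and BCL2 family genes -0.0587. The median of all tested genes moved to -0.03, against 0.03. Phf19 differed by 0.0853 with the mean of all probe sets, the median of the D cyclins list ran from -0.0547 to 0.0437 as each array was left out (positive without the second mutant array), and that of the BCL2 family from -0.0064 to 0.0882 (negative without the second wild-type array); the cause was not tested. Of 445 named genes 368 kept their direction and side of the threshold in every alternative run.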
